A study of Homo sapiens with 4 samples.

Results

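The receptors for lysophosphatidic acid (LPA) and sphingosine 1-phosphate (S1P) were examined in HEK293 cells, a human embryonic kidney line transformed with adenovirus DNA. The set held 10 genes, LPAR1, LPAR3, LPAR4, LPAR5, LPAR6 and S1PR1 to S1PR5, out of 17217 genes that could be named on the array. They were taken by name, through the RefSeq accession in each probe's identifier. No value entered that rule, though the receptors were chosen with earlier results of these data known. All 10 had a target on the array, and each target had 3 probes. LPAR2 had no accession that matched the gene table and was not analysed here. The samples were 4 biological replicates of 1 untreated group, grown under basal conditions in medium with 10% fetal bovine serum, each from its own culture plate and extraction. No treatment, genotype or second cell line enters, so the comparisons below are with a background level and not between conditions.

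LPA and S1P are small phospholipids that circulate in serum and act on cells from outside. The enzyme autotaxin releases LPA from lysophosphatidylcholine, sphingosine kinases make S1P inside cells, and lipid phosphatases and a lyase remove them. Their receptors are class A G protein-coupled receptors (GPCRs). One branch, once called EDG receptors, holds LPAR1, LPAR3 and all the S1P receptors, while LPAR4, LPAR5 and LPAR6 are closer in sequence to the nucleotide receptors of the P2Y family. HEK293 cells are widely used to express cloned receptors of this kind, and a receptor that the cells already make can add its own response to the lipids in serum.

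The sequence in front of annotated starts of each gene was read first. RefSeq promoter windows on build GRCh38.p14 were read for the 250 bases before each annotated start, and all 10 genes had at least 1 window. In the 5 sequences below, written 5′ to 3′ on the strand of the gene, capitals mark CpG dinucleotides. They are shown because they range from CpG-rich to nearly CpG-free and belong to genes at both ends of the measured range.
LPAR3, chr1:84893207-84893456, minus strand: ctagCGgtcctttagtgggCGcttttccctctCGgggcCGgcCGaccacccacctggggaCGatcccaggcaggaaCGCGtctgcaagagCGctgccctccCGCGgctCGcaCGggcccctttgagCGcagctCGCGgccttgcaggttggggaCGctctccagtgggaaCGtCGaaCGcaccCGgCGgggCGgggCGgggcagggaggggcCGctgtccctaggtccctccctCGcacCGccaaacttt
S1PR1, chr1:101236769-101237018, plus strand: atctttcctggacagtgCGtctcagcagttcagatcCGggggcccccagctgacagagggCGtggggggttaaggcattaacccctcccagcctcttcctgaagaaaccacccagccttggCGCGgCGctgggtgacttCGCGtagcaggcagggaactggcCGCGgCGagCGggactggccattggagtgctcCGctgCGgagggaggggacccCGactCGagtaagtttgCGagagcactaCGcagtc
S1PR2, chr19:10231332-10231581, minus strand: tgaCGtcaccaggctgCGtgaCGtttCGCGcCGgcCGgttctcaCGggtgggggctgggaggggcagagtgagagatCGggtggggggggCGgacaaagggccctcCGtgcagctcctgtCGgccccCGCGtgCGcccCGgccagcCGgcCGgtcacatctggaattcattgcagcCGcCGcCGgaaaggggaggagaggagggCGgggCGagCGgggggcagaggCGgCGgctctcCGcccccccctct
LPAR4, chrX:78747470-78747719, plus strand: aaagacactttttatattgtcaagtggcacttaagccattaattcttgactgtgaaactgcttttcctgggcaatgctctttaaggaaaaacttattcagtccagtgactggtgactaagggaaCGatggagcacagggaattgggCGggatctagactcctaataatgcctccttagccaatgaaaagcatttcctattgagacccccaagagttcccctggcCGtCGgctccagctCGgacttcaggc
LPAR5, chr12:6631650-6631899, minus strand: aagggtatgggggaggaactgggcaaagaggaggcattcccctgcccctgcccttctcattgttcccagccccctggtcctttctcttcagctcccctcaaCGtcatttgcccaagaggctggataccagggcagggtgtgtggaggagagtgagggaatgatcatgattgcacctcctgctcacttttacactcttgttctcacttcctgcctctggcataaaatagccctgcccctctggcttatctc
The windows of LPAR4, LPAR5 and LPAR6 held 5, 1 and 2 CpGs. Those of LPAR5 and LPAR6 lie inside the annotated gene, before an internal start and not in front of the whole gene. Some windows of LPAR1, S1PR3 and S1PR5 also lie inside the gene. The 14 windows of the 7 EDG-type genes held 2 to 39, and the median over 35114 windows of all genes was 11. LPAR3 and S1PR2 each had 27 CpGs, more than 82.3% of all windows. A relation of CpG content to the values given below was not tested. The letters GGGCGG, the core of the GC box read by Sp1, were searched on both strands. They occurred 2 times for LPAR3, 3 times for S1PR2 and once for LPAR4, and not in the windows of S1PR1 and LPAR5, while 42.6% of all windows held them. These are matches of letters and not measured sites.

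Zero expression was set on each array by genes of seminal proteins, picked in the study as improbable in these cells, and the baseline was their mean plus 2 SD. It stood at 9.47, 9.94, 10.69 and 10.32 log2 units on replicates 1 to 4, a mean of 10.10 ± 0.52 (SD, n = 4). A target's level is log2 of the mean of its 3 linear probe values. A gene's level is that of its target, or the mean over its targets where it has more than 1. The distance of a gene is its level minus the baseline of the same array. Detection means that the average of the 4 distances exceeded 0. Every probe binds with its own affinity, so distances of different genes are not amounts that can be set against each other. In RNA from a whole culture, fewer cells with a message and less of it per cell cannot be told apart. Among markers of the line, 8 of 11 were detected (5 without replicate 1), against 52.7% of all genes. Above the baseline on all 4 arrays were 4 of the 11 markers, against 45.0% of all genes. Among these 4 was the neurofilament NEFL at 4.01 ± 0.56 log2 units (SD, n = 4). The kidney factors PAX2 and PAX8 were not detected. DNER was not detected by its mean of -0.63, but its distances on replicates 1 to 4 were 2.18, -2.35, 0.67 and -3.01. Markers of other cells that carry these receptors were mostly below the baseline. Endothelial markers gave 2 of 9 detected (KDR and FLT1), leukocyte markers 1 of 10 (CD68) and fibroblast markers 1 of 7 (COL1A1; 0 without replicate 1). The defining markers PECAM1, CDH5 and PTPRC lay at -3.47, -3.50 and -3.50.

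The arrays did not behave as 4 equal copies. Replicates 1 and 2 shared one distribution of values and replicates 3 and 4 another. In addition, some marker genes separated replicates 1 and 3 from 2 and 4. The transcription factor SOX11 had distances of 3.96, -1.62, 2.70 and -2.36 on replicates 1 to 4, and the neurofilament NEFM was positive on the same arrays, with a mean of 0.66 ± 3.08 log2 units (SD, n = 4). No label sets these arrays apart, so each receptor is given by array.

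HEK293 cells contained message for 4 of the 10 receptors by the detection rule, LPAR1, LPAR3, S1PR3 and S1PR1. By the same rule 52.7% of all genes were detected. Of the 177 other matched class A receptors with known ligands 12 were detected (6.78%). The median distance was -0.87 log2 units for the 10 receptors, -2.84 for those other class A receptors and 0.26 for all genes. No receptor of the set exceeded the baseline on each of the 4 arrays, against 45.0% of all genes. A moderated one-sided test of the distance against 0, fitted with limma over all genes, called LPAR1 among the 10 and 45.9% of all genes. These shares are descriptions, and no test was made of the list.

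**Figure D1:**
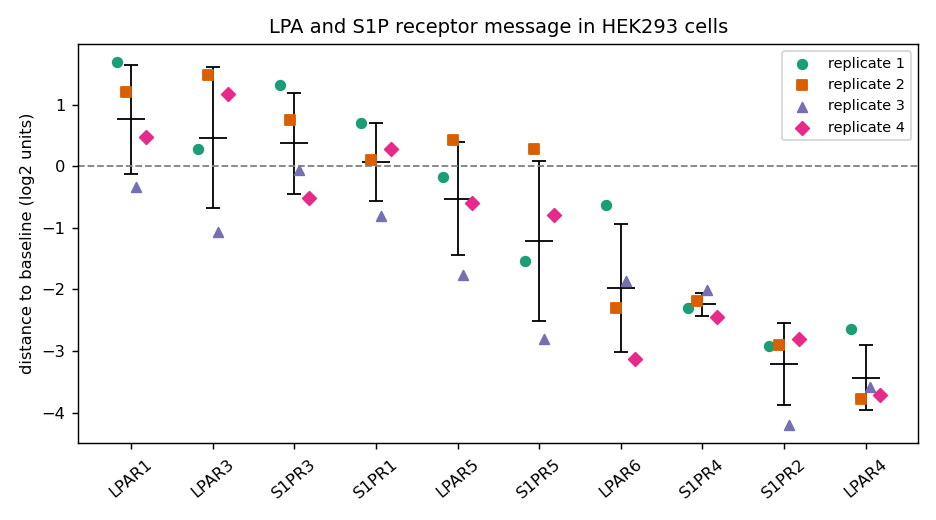
Distance to the baseline in log2 units for the 10 receptors, with 1 symbol per array and the mean ± SD over 4 arrays in black. The dashed line is the baseline. LPAR1, LPAR3, S1PR3 and S1PR1 have means from 0.76 down to 0.07, and each has at least 1 array below the line.

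LPAR1, the most widely expressed LPA receptor, which acts through Gi, Gq and the GNA12 class of G proteins, had the highest mean distance. Its log2 levels were 11.16, 11.14, 10.35 and 10.80 on replicates 1 to 4. Against the baselines this gave 1.69, 1.21, -0.34 and 0.48, so 3 of 4 arrays lay above and replicate 3 below. For the test over the 4 arrays every gene had the same standard error of 0.35, whatever its own SD. The mean of LPAR1 was 0.76 ± 0.89 log2 units (SD, n = 4; limma adjusted p = 0.034). That call did not survive the leaving out of replicate 1, 2 or 4 (limma adjusted p = 0.213, 0.178 and 0.063), nor taking the pairs of arrays that share a distribution as a random block (limma adjusted p = 0.087). Within those pairs the distance was 1.45 on replicates 1 and 2 and 0.07 on replicates 3 and 4.

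LPAR3, a receptor that prefers LPA with unsaturated acyl chains, showed the widest split among the detected receptors. Its levels were 9.75, 11.41, 9.62 and 11.49 on replicates 1 to 4, and the distances 0.28, 1.47, -1.07 and 1.17. Replicates 2 and 4 were thus both higher than replicates 1 and 3. The mean of 0.46 ± 1.14 log2 units (SD, n = 4) did not pass the test (limma adjusted p = 0.194). The value moved with single arrays, to 0.97 without replicate 3, which passed (limma adjusted p = 0.011), to 0.13 without replicate 2 (limma adjusted p = 0.756) and to 0.23 without replicate 4 (limma adjusted p = 0.594). The SD of the level, 1.02 log2 units, exceeded that of 95.9% of all genes.

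The P2Y-like LPA receptors gave 0 of 3 detected. LPAR5, which couples to Gq and the GNA12 class, came nearest, with distances of -0.18, 0.42, -1.76 and -0.60 and a mean of -0.53 ± 0.92 log2 units (SD, n = 4). Only replicate 2 lay above the baseline. LPAR6, known for its role in hair growth, stood at -1.98 ± 1.04 (SD, n = 4), with levels of 8.84, 7.64, 8.83 and 7.19 on replicates 1 to 4. Here replicates 1 and 3 were the higher arrays, the reverse of LPAR3. The LPAR6 gene lies inside the RB1 gene, which was detected at 1.88 ± 0.73 (SD, n = 4) on all 4 arrays. Both strands of the cDNA were labelled, so the probes do not tell strands apart, and a part of RB1 transcripts in the LPAR6 value was not tested. LPAR4, a receptor that can also raise cyclic AMP, was the lowest of the 10. Its levels of 6.82, 6.15, 7.10 and 6.60 put it -3.44 ± 0.53 log2 units from the baseline (SD, n = 4), among the control genes.

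S1PR3 and S1PR1 were the S1P receptors above the baseline, out of 5. S1PR3, which couples to several classes of G protein, had levels of 10.78, 10.69, 10.62 and 9.81 on replicates 1 to 4. Its distances were 1.31, 0.75, -0.07 and -0.51, a mean of 0.37 ± 0.82 log2 units (SD, n = 4; limma adjusted p = 0.297). It was 0.057 without replicate 1, 0.24 without replicate 2 and 0.66 without replicate 4. The positive arrays were the pair that shares a distribution, at 1.03 on replicates 1 and 2 and -0.29 on replicates 3 and 4. S1PR1, a Gi-coupled receptor that guides lymphocyte exit and holds blood vessels together, had levels of 10.17, 10.03, 9.88 and 10.60. With distances of 0.70, 0.09, -0.81 and 0.28 it stood at the baseline itself, at 0.07 ± 0.64 log2 units (SD, n = 4; limma adjusted p = 0.815). It fell below, to -0.15, without replicate 1 and to -0.0042 without replicate 4, and was 0.36 without replicate 3.

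The other S1P receptors were not detected. S1PR5, best known from oligodendrocytes and natural killer cells, had levels of 7.93, 10.21, 7.89 and 9.53 on replicates 1 to 4, the largest SD of the family at 1.17 log2 units. Its distances were -1.54, 0.28, -2.80 and -0.79, with a mean of -1.21 ± 1.29 (SD, n = 4). As for LPAR3, replicates 2 and 4 were the higher arrays. S1PR4, a receptor of lymphoid tissue, stayed between -2.45 and -2.01 on the 4 arrays. S1PR2, which couples strongly to the GNA12 class, lay at -2.92, -2.90, -4.20 and -2.81, a mean of -3.21 ± 0.67 log2 units (SD, n = 4). S1PR2 and LPAR4 were the receptors whose mean level was under the mean of the control genes.

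In order of mean distance the receptors ran LPAR1, LPAR3, S1PR3, S1PR1, LPAR5, S1PR5, LPAR6, S1PR4, S1PR2 and LPAR4. Of the 9 pairs of neighbours in that order, 7 differed by less than 1 SD of their difference over the 4 arrays. The exceptions were LPAR5 over S1PR5, by 0.68 ± 0.61 log2 units, and S1PR4 over S1PR2, by 0.97 ± 0.83 (SD, n = 4 for each), and both held on 4 of 4 arrays. These spreads cover the arrays and not the affinity of the probes: the probe means spanned 3.21 log2 units within LPAR5 and 2.76 within S1PR4. The order is a description of these probes and no ranking of message.

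The probes of some receptors disagreed. Of the 30 probes 9 had a mean above the baseline, and for LPAR1, LPAR5, S1PR1 and S1PR3 the 3 probes fell on both sides of it. The shares of all probes and targets for these counts were not computed, so they describe the receptors alone. The range of the probe means within a target had a median of 1.82 log2 units over the 10 receptors and 1.48 over all named targets. LPAR3 was the receptor with all 3 probe means above the baseline, at 10.42, 10.14 and 10.99, and each of the 3 was higher on replicates 2 and 4 than on replicates 1 and 3. S1PR1 rested on 1 probe with a mean of 11.01, which was above the baseline on all 4 arrays, while its other probes had means of 9.08 and 9.66. For S1PR3 a probe with a mean of 11.39 lay above the baseline on all 4 arrays and another with a mean of 8.61 on none. LPAR5 had a probe at 10.30, above the baseline on 3 of 4 arrays, and another at 7.08. The LPAR1 probes had means of 10.67, 9.75 and 11.46. On replicate 3 the second of them read 8.08, against 10.12 or more elsewhere, while the first stayed above the baseline by 0.41. The 3 probes of LPAR4 agreed at 6.41 to 6.91, and those of S1PR2 at 6.54 to 7.28. In S1PR5 the third probe read 10.75 on replicate 2 and no more than 8.01 elsewhere, so the high value of replicate 4 came from the other probes, at 9.57 and 10.23.

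**Figure D2:**
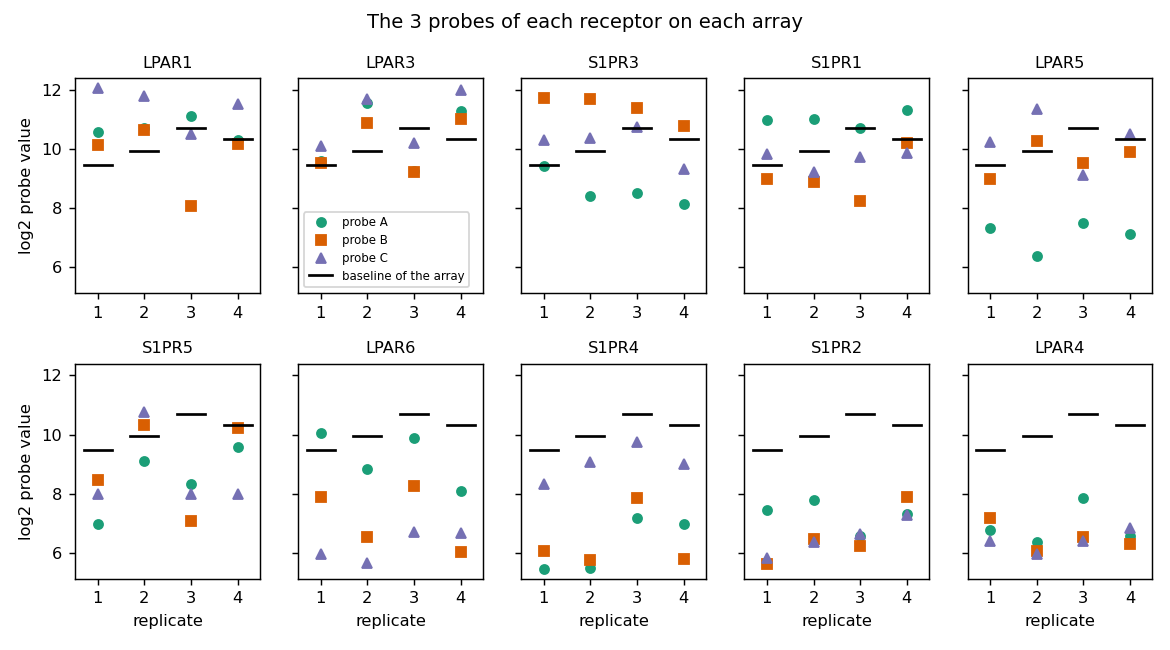
Log2 values of the 3 probes of each receptor on replicates 1 to 4, with each array's baseline as a short black line. LPAR3 has probe means of 10.14 to 10.99 that move together, while LPAR1, S1PR1, S1PR3 and LPAR5 each have probes on both sides of the baseline.

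The levels of replicates 1 and 3 were then set against those of replicates 2 and 4. For LPAR3, LPAR5, S1PR2 and S1PR5 both of replicates 2 and 4 had a higher level than both of 1 and 3, as had 18.5% of all genes. For LPAR4 and LPAR6 both were lower, as for 22.2% of all genes. That made 6 of 10 receptors without overlap, against 40.7% of all genes, and no test was made of it. The grouping was seen in the values of these arrays and is given by no label. Any split of 4 arrays into pairs also leaves a part of the genes without overlap by chance. S1PR2 and LPAR4 are among the 6 although their mean levels lay under that of the control genes. The difference of the means, replicates 2 and 4 minus 1 and 3, was largest for S1PR5 at 1.96 and LPAR3 at 1.77 log2 units, above that of 98.5% and 97.9% of genes in size, and it was -1.42 for LPAR6. The levels of LPAR1, S1PR1, S1PR3 and S1PR4 overlapped. The 16 serum, SRF and YAP target genes split both ways. Of these, 6 were higher on both of replicates 1 and 3, 5 were higher on both of replicates 2 and 4, and 5 overlapped. The widest differences were chosen for display after their values were seen. The smooth muscle protein TAGLN had distances of 3.39, 0.05, 2.49 and -0.02 on replicates 1 to 4, and the myosin light chain MYL9 0.88, -1.39, 0.10 and -2.11. The YAP target ANKRD1 was above the baseline on replicates 1 and 3, at 1.13 and 0.50, and below it on the others, and CCN2, also a YAP target, 2.16, 0.20, 0.51 and -0.74. All 4 were higher on replicates 1 and 3. The early gene FOS went the other way, with levels of 9.68, 10.30, 9.12 and 9.86 on replicates 1 to 4. Whether the receptors have a part in this was not tested, and with 4 arrays no correlation was computed.

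**Figure D3:**
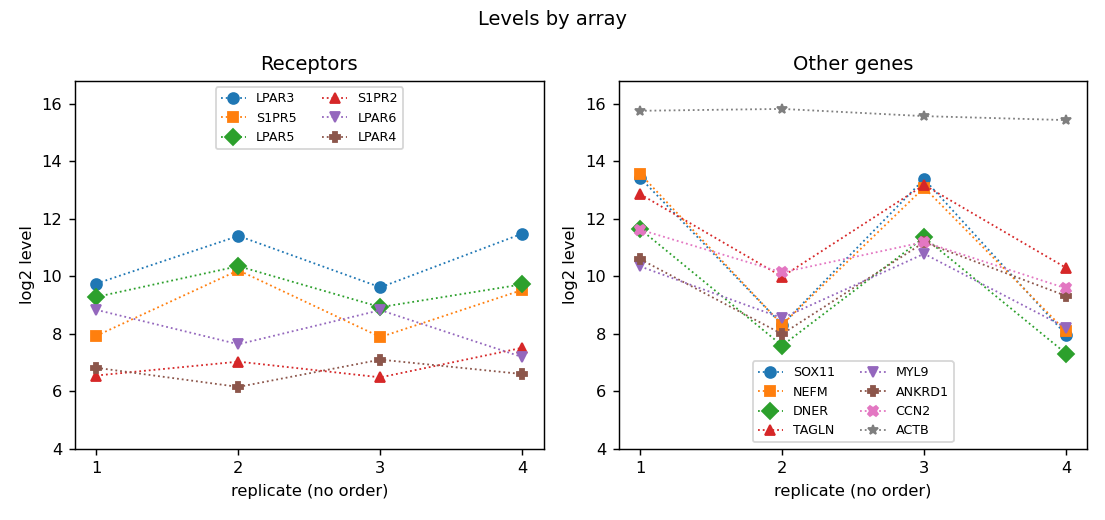
Log2 levels on replicates 1 to 4 of the 6 receptors whose arrays did not overlap (left) and of other genes (right). LPAR3 and S1PR5 are high on replicates 2 and 4, LPAR6, TAGLN, SOX11 and NEFM on replicates 1 and 3, and ACTB is level. Dotted lines only link the values of a gene.

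Over the 4 arrays, the genes of the fixed lists whose array-to-array pattern lay closest to that of a detected receptor were found by the root mean square difference of levels centred on each gene's mean. For LPAR3 they were the kidney factor WT1 (0.16 log2 units), the kinase LATS1 (0.17) and the prostaglandin receptor PTGER2 (0.26), where the median over 189 genes was 0.94. For S1PR3 the nearest were YAP1 (0.04) and GPAM (0.13), with a median of 0.58. For LPAR1 the nearest was the reference gene YWHAZ (0.05), and for S1PR1 the ceramidase ACER2 (0.06). With 4 points such closeness is a description.

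The machinery that makes and removes the ligands was then set against the same baseline, by which 52.7% of all genes were detected. ENPP2, which encodes autotaxin, stood at 3.25 ± 0.76 log2 units (SD, n = 4) and above the baseline on all 4 arrays, at 4.31, 3.31, 2.73 and 2.66. It was 1 of 4 genes detected among 10 listed for LPA synthesis, beside the lipid kinase AGK and the acyltransferase GPAM, which make LPA inside cells, at 1.46 and 1.02. The fourth, ACP6 at 2.21, is a phosphatase that breaks LPA down, so 3 of the 4 make it. LIPH, a phospholipase that makes LPA from phosphatidic acid, was at -1.81. Of 9 matched genes for LPA removal 6 were detected, with the acyltransferase AGPAT1 at 3.70 and the lipid phosphatase PLPP1 at 1.60. Its relatives PLPP2 and PLPP3 lay just under the baseline at -0.38 and -0.11.

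For S1P synthesis 5 of 8 genes were detected, against 52.7% of all genes. The kinase SPHK1 stood at 1.03 ± 0.36 log2 units (SD, n = 4; limma adjusted p = 0.0040), and SPHK2 at 0.15 ± 0.46 (SD, n = 4; limma adjusted p = 0.662). The ceramidases ASAH1 and ACER3, which supply sphingosine, stood at 4.21 and 2.78. Of 6 genes for S1P removal 4 were detected, among them the lyase SGPL1 at 3.56 ± 1.00 and the phosphatase SGPP1 at 1.47 ± 0.89 (SD, n = 4). Exporters and carriers gave 1 of 5, the transporter ABCC1 at 1.85, while ABCA1 and the S1P chaperone APOM were at -3.77 and -0.77. The dedicated exporters SPNS2 and MFSD2B had no matched target and were not analysed here.

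Most of the listed genes downstream of the receptors were above the baseline, as were 52.7% of all genes. Of 10 G alpha subunits 8 were detected, each of them on all 4 arrays, against 45.0% of all genes above on 4 arrays. They included GNAI2 at 3.77, GNAQ at 2.45, GNA12 at 1.22, GNA13 at 2.48 and GNAS at 5.03. GNAI1 stood at -0.02 and the neuronal GNAO1 at -1.83. Receptor kinases and arrestins gave 5 of 7, with ARRB2 at 4.79 and GRK5 at 1.84. GRK2, a kinase found in most cells, had distances of -2.68 to -4.23, and a low value on this array is no proof that message is missing.

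Of 12 listed genes of the SRF and YAP pathways 11 were detected, against 52.7% of all genes. The list holds coactivators, the transcription factors SRF and TEAD1 to TEAD4, and the kinases LATS1 and LATS2. SRF stood at 3.94, YAP1 at 2.07 and MRTFA at 2.03, and the muscle coactivator MYOCD at -3.52. Among 16 serum, SRF and YAP target genes, which include SRF again, 11 were detected. The YAP target CCN1 stood at 4.21 ± 0.69 and the early gene EGR1 at 1.27 ± 0.91 (SD, n = 4). FOS, JUNB and AMOTL2, which respond to the same signals, were at -0.36, -1.40 and -2.86.

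**Figure D4:**
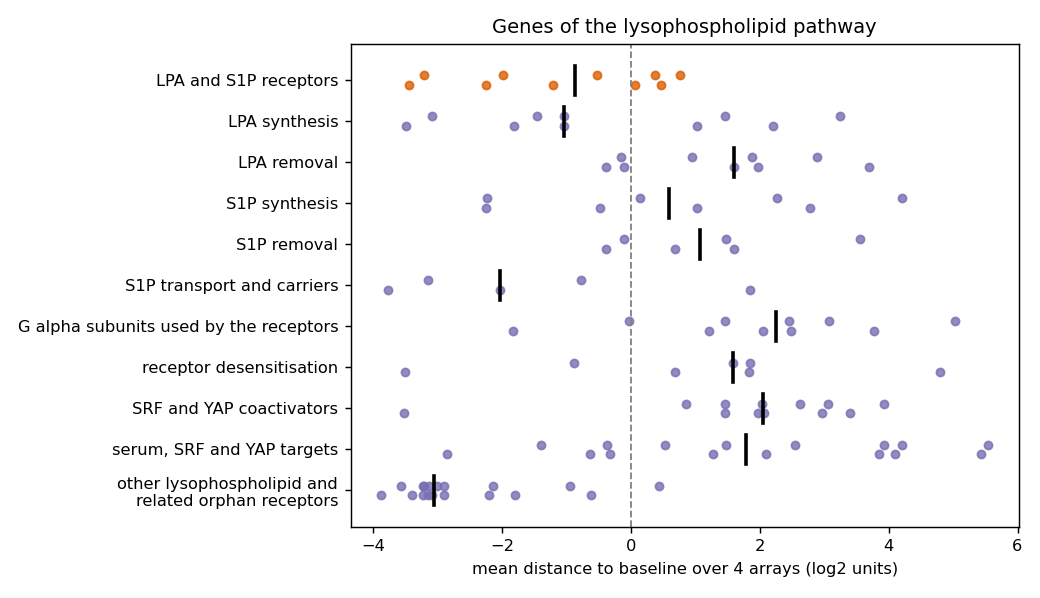
Mean distance to the baseline over 4 arrays, in log2 units, for each gene of the receptor set and of 10 pathway lists, with 1 point per gene and a black bar at the median of the list. Of the 10 G alpha subunits 8 lie right of the dashed baseline, while the receptors lie between -3.44 and 0.76. The list labelled SRF and YAP coactivators also holds the transcription factors SRF and TEAD1 to TEAD4 and the kinases LATS1 and LATS2.

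Receptors for other lysophospholipids and related receptors gave 1 of 18 detected, against 52.7% of all genes. It was the orphan GPR63 at 0.44 ± 0.35 log2 units (SD, n = 4; limma adjusted p = 0.212), above the baseline on all 4 arrays. The lysophosphatidylserine receptors GPR34, P2RY10 and GPR174 stood at -0.61, -3.87 and -3.23. The cannabinoid receptors CNR1 and CNR2, counted in the same list, stood at -3.13 and -3.01. Among other class A families taken for comparison, the prostanoid receptors gave 1 of 9 (PTGER2 at 0.83) and the P2Y receptors 1 of 8 (P2RY11 at 0.50). The protease-activated receptors gave 2 of 4 (F2R at 2.04 and F2RL1 at 1.80). F2R and F2RL1 were above the baseline on all 4 arrays, which no LPA or S1P receptor was.

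The count of receptors rested on where the baseline was put. AFG2A (once SPATA5) and SPATA13, counted among the seminal controls, had levels of 9.21 to 10.73, and the other 8 matched controls 6.05 to 7.72. Without these genes the baseline fell to 7.78 log2 units, and 8 of 10 receptors were detected, against 74.0% of all genes. With olfactory receptor genes as controls the baseline was 8.02, and 7 of 10 receptors were detected, against 71.4% of all genes. LPAR1, LPAR3, S1PR3, S1PR1 and LPAR5 then lay above it on all 4 arrays, which makes 5 of 10 receptors against 64.5% of all genes. The mean distances of these receptors were 2.84, 2.55, 2.45, 2.15 and 1.55 log2 units. With 3 SD in place of 2 no receptor was detected, against 39.1% of all genes. S1PR2 and LPAR4 stayed below every baseline that was tried.

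**Figure D5:**
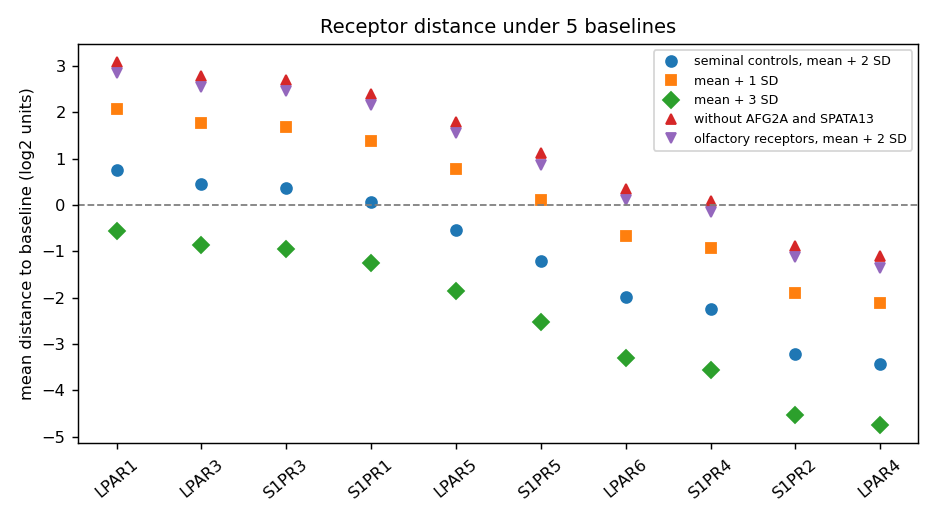
Mean distance of the 10 receptors in log2 units under 5 definitions of the baseline. LPAR1 ranges from -0.56 with 3 SD to 3.09 without AFG2A and SPATA13, and S1PR2 and LPAR4 are below 0 under each.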

How the data were processed

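RNA of 4 HEK293 cultures was copied from an oligo(dT) primer, labelled with Cy3 and hybridised to a NimbleGen array of long oligonucleotides designed on HG18. The authors deposited log2 probe values, for which the submitters' processing notes name RMA; a background correction is not given in the sources used here. Sorted values agreed within 0.01 at 99.97% of ranks for replicates 1 and 2 and at 99.99% for 3 and 4, and at 1.22% to 1.25% between these pairs; how this arose is not given in the sources used here. Accessions named 19125 of 24000 targets and 17217 genes through a RefSeq table of GRCh38.p14. Baseline, level and distance follow the study's methods, with 10 of 11 control genes matched. For genes with more than 1 target the log2 levels of the targets were averaged.

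limma 3.58 in R 4.3 tested distances against 0, one-sided, with Benjamini-Hochberg adjustment at 0.05 over 17217 genes. Its variance prior was infinite, so every gene had a standard error of 0.35, and genes of an array share its baseline. An exact one-sided sign-flip test cannot go below 0.0625 with 4 arrays. The script was tested on simulated data. Precision is limited by 4 arrays and 3 probes per target. Named genes were the receptors, the controls, members of the fixed lists, genes overlapping a receptor gene, and the 3 list genes nearest in pattern to a detected receptor. Receptors and lists were chosen with earlier results of these data known. Alternatives covered the probe summary, baseline, controls, normalization, prior, filter, block and replicates. Some genes and lists are not reported here.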

Additional observations from a re-analysis of the deposited data

Results flagged for a closer look

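For each named gene, the array farthest out was compared with its nearest neighbour, as the gap divided by the whole range of the 4 arrays. Of 161 measures, 5 passed the Dixon limit of 0.829, and chance marks about 1 in 20. Among the receptors, S1PR3 had its low array at replicate 4, with a level of 9.81 against 10.62 or more elsewhere (0.836). S1PR2 had its low array at replicate 3, with a distance of -4.20 against -2.92 or more elsewhere (0.919). The other values were 0.877 for the level of RB1, 0.988 for the level of PTPRC and 0.83 for the distance of GNAI2.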

How the results depend on the processing

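No paired analysis was possible because the design holds 1 group. The baseline of 10.10 log2 units was 8.79 with 1 SD, 11.42 with 3 SD, 7.78 without AFG2A and SPATA13, 8.02 with olfactory receptor genes, and, in alternatives chosen after seeing the data, 9.27 without AFG2A and 9.45 without SPATA13. In the first 4 of these settings the receptors detected were 6, 0, 8 and 7, the receptors called by limma 5, 0, 6 and 6, those above the baseline on every array 4, 0, 5 and 5, and the median distance 0.45, -2.19, 1.46 and 1.21. Of all genes, 64.3%, 39.1%, 74.0% and 71.4% were detected in these settings, 58.9%, 28.6%, 68.6% and 66.3% called, and 57.9%, 28.7%, 66.6% and 64.5% above the baseline on every array. Limma called 2 receptors with the mean of log2 probe values, on replicates 1 and 2 alone and on replicates 2 and 4 alone, and 0 with the median of probes, with quantile normalization of all arrays, with a trend and robust prior, with array pairs as a random block (within-pair correlation 0.34), on replicates 3 and 4 alone and on replicates 1 and 3 alone. The detected count was 2 on replicates 3 and 4 alone and on replicates 1 and 3 alone. The count above the baseline on every array was 1 with the median of probes, 4 on replicates 1 and 2 alone and 3 on replicates 2 and 4 alone. A rule over 2 arrays is easier to meet than one over 4, so these counts are not like the main one. For these and the remaining alternatives the share of all genes was not computed. Leaving out 1 replicate gave baselines of 9.91 to 10.32, 3 to 4 receptors detected, 0 to 2 called, 0 to 3 above the baseline on every array, and median distances of -1.28 to -0.40.

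Receptors changed side of the baseline as follows. With 1 SD, LPAR5 stood at 0.79 and S1PR5 at 0.10. With 3 SD, LPAR1 stood at -0.56, LPAR3 at -0.85, S1PR1 at -1.25 and S1PR3 at -0.95. Without AFG2A and SPATA13, LPAR5 stood at 1.80, LPAR6 at 0.34, S1PR4 at 0.086 and S1PR5 at 1.11. With olfactory receptor genes, LPAR5 stood at 1.55, LPAR6 at 0.10 and S1PR5 at 0.87. S1PR1 was at -0.22 with the median of probes, and without a replicate it ran from -0.15 to 0.36. On replicates 1 and 2 alone LPAR5 was at 0.12. On replicates 3 and 4 alone S1PR1 and S1PR3 were at -0.26 and -0.29, and on replicates 1 and 3 alone LPAR3 and S1PR1 at -0.39 and -0.053. By single probes, chosen after seeing the data, S1PR3 was at -1.49 with the first, LPAR1 at -0.36 and S1PR1 at -1.03 with the second, and LPAR5 at 0.19 and S1PR1 at -0.44 with the third. The height of the baseline accounts by construction for the shifts under other controls or SDs; elsewhere the cause was not tested. LPAR1 also missed the limma threshold with the median of probes (adjusted p = 0.112), quantile normalization (0.052) and the trend and robust prior (0.062), and over all alternatives tested its adjusted p ranged from 1.3e-13 to 1.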
